A study of Homo sapiens with 6 samples.

Results

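Creatine lets a cell hold high-energy phosphate in reserve. GATM, arginine:glycine amidinotransferase, moves an amidino group from arginine to glycine in the mitochondrion and yields guanidinoacetate and ornithine. GAMT, guanidinoacetate N-methyltransferase, then adds a methyl group from S-adenosylmethionine to give creatine. In the body this synthesis is known mainly from kidney, pancreas and liver, and skeletal muscle takes up most of its creatine through the transporter SLC6A8. Creatine kinases pass phosphate between ATP and creatine: CKM in the cytosol of muscle, CKB in brain and many other tissues, and CKMT2 in the mitochondria of striated muscle. CKM is a classical product of muscle differentiation, and in the mouse MyoD acts on its enhancer.

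These 6 genes (GATM, GAMT, SLC6A8, CKM, CKB and CKMT2) were followed among the 22448 genes that a whole-transcriptome array measured in the alveolar rhabdomyosarcoma cell line RH30. They form a pathway that was chosen by the log2 fold change of GATM, among the largest falls in these same arrays. Their values in the comparison are therefore given as a description, with no p value, and whether the fit over all genes called them is stated without support being drawn from it. Each gene was read from the transcript cluster (the unit the array summarizes) that carried only its symbol, and from the cluster with the highest mean where a gene had several. All cells carried the IκBα super-repressor (SR), a retroviral transgene that blocks NF-κB. The 3 control arrays (RH30-SR) were set against 3 arrays of RH30-SR MyoDΔ, in which MyoD had been ablated with CRISPR. The labels give DMEM with fetal bovine serum as the medium of all cultures and no further treatment. The methods of the study name RPMI for RH30, so that the medium is not settled. All MyoDΔ arrays came from 1 clone (number 29), so that the spread between them is not a spread between clones. Whether RH30-SR cells were also exposed to Cas9 or a control guide is not in the labels.

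Values are log2 RMA expression, in which 1 unit is a doubling of signal, and the median over all clusters was 4.295. No gene's level was ranked against another's, since each is read by its own probes. Pairs of arrays from the same group correlated at 0.9943 to 0.9969 across clusters, and pairs from different groups at 0.9885 to 0.9923. RH30-SR replicate 2 stood somewhat apart, since without it the lowest values were 0.9962 and 0.9918. MYOD1, the edited gene, read 9.09, 9.50 and 9.43 in RH30-SR and 6.95, 7.16 and 6.90 in MyoDΔ cells. Of 7 measured markers of the skeletal muscle lineage, 5 were called lower (4.2% of all genes were). The other 2, MYF5 and PAX3, were called higher (2.81%). MYOD1, the target of the edit, is 1 of the 5. The rule for a call is given below, with the creatine genes. Desmin (DES) read 10.78 to 10.81 in RH30-SR and 8.66 to 8.82 in MyoDΔ cells, or 4.16-fold lower. The remaining markers called lower were CHRNA1 (-3.67), MYOG (-2.70) and CDH15 (-1.74), as log2 fold changes. The 6 further marker lists (kidney proximal tubule, hepatocyte, epithelial, leukocyte, endothelial and neural) held 5, 6, 5, 4, 5 and 5 measured genes. Of these, 1 gene was called, PECAM1 (-0.48 ± 0.10, SE), against 7.01% of all genes. At that share lists of this size would hold few or no calls. PECAM1 was no longer called after any single array was removed, except RH30-SR MyoDΔ replicate 3 (limma adjusted p = 0.0661 to 0.128). Its group means (4.05 in RH30-SR and 3.57 in MyoDΔ cells) lay under the median of all clusters. The list members nearest to a call elsewhere were CUBN (-0.09), SERPINA1 (0.19), KRT8 (0.17), CD14 (-0.17) and SNAP25 (0.04), on the log2 scale.

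GATM was much lower in MyoDΔ cells, SLC6A8 and CKB were slightly lower, and GAMT, CKM and CKMT2 overlapped between groups. In RH30-SR its cluster (TC15002814.hg.1) gave 7.02, 7.21 and 7.22, and in MyoDΔ cells 4.22, 4.62 and 4.25. The groups were separated by a gap of 2.40 log2 units, and the SD was 0.113 in RH30-SR and 0.223 in MyoDΔ cells. The log2 fold change was -2.79 ± 0.12 (SE, n = 3 per group; 95% interval -3.07 to -2.51), or 6.90-fold lower. GATM ranked 8 of 22448 genes by size of fall. In MyoDΔ cells the mean (4.36) lay at about the median of all clusters. No background measure was at hand, so that the true size of the fall is uncertain. Leaving out any 1 array gave values from -2.92 to -2.72, and -2.76 without RH30-SR replicate 2.

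A separate cluster that also carried only the symbol GATM (TC15002815.hg.1) showed far less. It read 4.33, 4.31 and 4.15 in RH30-SR and 4.05, 4.10 and 4.09 in MyoDΔ cells, a change of -0.18 ± 0.06 (SE). The groups did not overlap, but the group means (4.26 and 4.08) were under 4.295, the median over all clusters. Which part of the gene each cluster reads was not given in the sources used here.

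GATM fell in the same arrays as most muscle markers. The summed signal of the 7 lineage markers, on the log2 scale, was 12.11 to 12.25 in RH30-SR and 10.29 to 10.37 in MyoDΔ cells. Such sums are dominated by the brightest probes, and the part of these markers in the fall of GATM was not tested. In bulk RNA, fewer cells of a kind and less RNA per cell cannot be told apart. Markers of the kidney proximal tubule, a main site of GATM expression in the body, had a summed signal of 7.26 to 7.30 in RH30-SR and 7.23 to 7.30 in MyoDΔ cells.

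**Figure D1:**
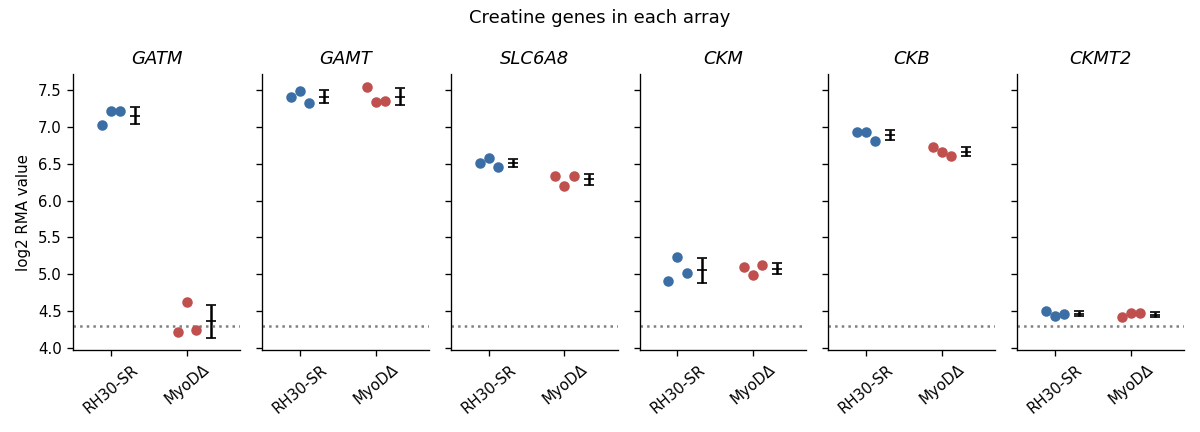
Log2 RMA value of each creatine gene in each array, with RH30-SR in blue and RH30-SR MyoDΔ in red (replicates 1 to 3 from left to right), the mean ± SD as black bars (n = 3) and the median of all clusters (4.295) as a dotted line. GATM drops from above 7 to 4.22 to 4.62, whereas GAMT, CKM and CKMT2 overlap between groups, and SLC6A8 and CKB are separated by 0.13 and 0.09.

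GAMT, the enzyme that acts after GATM, was level. It read 7.41, 7.49 and 7.32 in RH30-SR and 7.54, 7.34 and 7.35 in MyoDΔ cells. The groups overlapped, with 1 MyoDΔ array above all controls and the other two between the lowest and the middle control. The change was 0.00 ± 0.08 (SE), with a 95% interval of -0.18 to 0.18 that lies inside the threshold of 25% (0.32 on the log2 scale) on both sides. The enzymes of the pathway's opening and closing steps thus read differently, a difference that was not tested, because GATM had been chosen for its fall.

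SLC6A8, which imports creatine, was slightly lower. It read 6.51, 6.57 and 6.46 in RH30-SR and 6.33, 6.20 and 6.33 in MyoDΔ cells. The groups did not overlap, but the gap (0.13) was close to the range within each group. The change was -0.23 ± 0.06 (SE; 95% interval -0.37 to -0.08), or 1.17-fold lower. SLC6A8 lies on the X chromosome, where 12.1% of genes were called lower against 4.2% of all genes, and where the median log2 fold change was -0.05 against -0.01. The part of the chromosome in this value was not tested. RefSeq lists transcribed pseudogenes of SLC6A8 (SLC6A10P and SLC6A10PB) on chromosome 16, and whether its probes also read them was not tested.

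The cytosolic creatine kinases differed little between groups. CKM read 4.91, 5.24 and 5.02 in RH30-SR and 5.10, 4.99 and 5.13 in MyoDΔ cells. All 3 MyoDΔ values lay within the control range. The change was 0.02 ± 0.09 (SE; 95% interval -0.20 to 0.23). Without a background measure it is not known how far these values lie above background, and a change in CKM could be hidden there. RH30-SR replicate 2 held the highest value, and without it the change was 0.11. CKB read 6.93, 6.93 and 6.81 in RH30-SR and 6.72, 6.66 and 6.60 in MyoDΔ cells. Every MyoDΔ value was lower than every control value, by a gap of 0.09. The change of CKB was -0.23 ± 0.06 (SE; 95% interval -0.37 to -0.09), or 1.17-fold lower.

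CKMT2, the sarcomeric mitochondrial kinase, read 4.50, 4.44 and 4.46 in RH30-SR and 4.42, 4.47 and 4.47 in MyoDΔ cells. These values span 0.08 log2 units across both groups, and they lie just above the median of all clusters, where a change could be hard to see. The change was -0.01 ± 0.05 (SE; 95% interval -0.13 to 0.10). The ubiquitous mitochondrial kinases CKMT1A and CKMT1B are carried only by clusters with several symbols and were not analysed here.

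A gene was called where the adjusted p was under 0.05 and the change exceeded 25%, and by this rule 1 of the 6 genes was called, GATM, against 7.01% of all genes (4.2% lower and 2.81% higher). The groups did not overlap, with MyoDΔ lower, for GATM, SLC6A8 and CKB, 3 of the 6, against 18.4% of all genes (34.2% in either direction). Nothing is read from these shares, because the genes were chosen with this comparison known. The median change of the 6 was -0.12, against -0.01 over all genes.

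**Figure D2:**
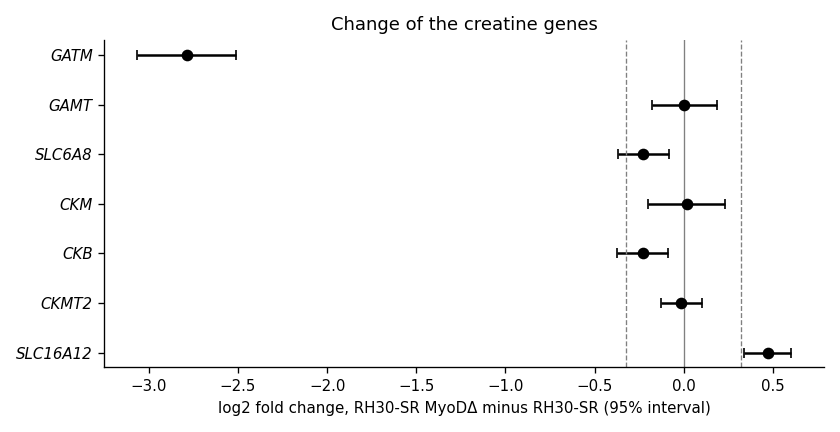
Log2 fold change (RH30-SR MyoDΔ minus RH30-SR) of the 6 creatine genes and of the creatine exporter SLC16A12, with 95% intervals from limma (n = 3 per group). Dashed lines mark a change of 25%. GATM lies at -2.79, SLC16A12 at 0.47, and the intervals of GAMT, CKM and CKMT2 lie inside the dashed lines.

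MyoD binds E-boxes (CANNTG) as a dimer with E proteins, CAGCTG and the form CAGGTG being among those it prefers, and MEF2 factors bind a separate motif in many muscle genes. To show what lies at the starts of these genes, windows of 250 bases before to 50 bases after the start were used. They came from a set of RefSeq promoter windows (GRCh38.p14) that held 5 of the 6 genes and lacked GAMT. The windows of GATM, which fell, and CKM, which overlapped between groups, are printed in full. They run 5′ to 3′ on the gene's strand, with every E-box in capitals. The GATM window is chr15:45378495-45378794 (minus strand) and that of CKM is chr19:45322826-45323125 (minus strand). The RefSeq span of GATM (chr15:45361124-45402227) runs on beyond the start used here, and which start these cells use was not measured. To set other sites beside them, a stretch of the CKMT2 window holding its E-boxes (chr5:81233159-81233231, plus strand) and a stretch of the CKB window holding a match to the MEF2 motif, in capitals (chr14:103522881-103522910, minus strand), follow.
GATM: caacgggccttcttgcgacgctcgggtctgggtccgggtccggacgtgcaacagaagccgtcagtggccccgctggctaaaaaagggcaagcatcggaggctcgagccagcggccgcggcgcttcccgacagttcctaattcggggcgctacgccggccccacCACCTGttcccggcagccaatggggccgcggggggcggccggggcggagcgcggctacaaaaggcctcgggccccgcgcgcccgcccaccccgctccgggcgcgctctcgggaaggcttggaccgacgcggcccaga
CKM: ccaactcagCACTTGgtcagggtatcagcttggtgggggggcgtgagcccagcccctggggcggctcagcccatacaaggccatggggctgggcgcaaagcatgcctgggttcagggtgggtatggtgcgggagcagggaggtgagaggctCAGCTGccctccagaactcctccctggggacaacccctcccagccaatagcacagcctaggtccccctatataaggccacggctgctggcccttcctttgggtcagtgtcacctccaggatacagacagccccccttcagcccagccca
CKMT2: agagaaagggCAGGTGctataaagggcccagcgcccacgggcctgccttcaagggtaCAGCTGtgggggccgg
CKB: aatgaatgggCTATAAATAGccgccaatgg

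GATM held 1 E-box, CACCTG, which reads CAGGTG on the opposite strand, 87 bases before the start. CKM held 2, CACTTG at 241 and CAGCTG at 99 bases before the start. CKMT2 held 2, CAGGTG at 153 and CAGCTG at 106 bases before the start, and SLC6A8 and CKB held none. An E-box of a preferred form, with CAGGTG counted on either strand, thus stood in the windows of GATM, CKM and CKMT2. Such a site occurs in 34.5% of 35116 promoter windows of this length, and any E-box in 68.7%. GATM fell, while CKM and CKMT2 overlapped between groups, at levels where a change could be hidden. The part of these sites in any change was not tested. The MEF2 motif, sought on both strands, was matched in CKB only, 70 bases before the start, where it overlaps a TATA-like stretch, and it occurs in 2.99% of windows. A match is a run of letters and not a measured binding site, and sites further away were not searched.

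SLC16A12, a transporter that exports creatine from cells, was higher in MyoDΔ cells. It read 4.85, 4.82 and 4.84 in RH30-SR and 5.25, 5.39 and 5.28 in MyoDΔ cells. The lowest MyoDΔ value was well above the highest control value. The log2 fold change was 0.47 ± 0.06 (SE, n = 3; limma adjusted p = 0.00407), or 1.39-fold higher, and the call held in each of 13 alternatives. It was the 1 gene measured of the 3 listed as further creatine genes, a list chosen with earlier results of these data known. Its control values lay not far above the median of all clusters (4.295). Without a background measure the true size of the rise is uncertain.

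Among genes that supply arginine and glycine to GATM, or use its ornithine, ASS1, PHGDH and PSAT1 were lower and SLC7A1 was higher. The list held 20 measured genes, of which 3 were called lower (4.2% of all genes were), 1 higher (2.81%) and 16 neither. The groups did not overlap for 10 genes with MyoDΔ lower (18.4% of all genes) and for 3 with MyoDΔ higher (15.8%), and the median of the list was -0.07 against -0.01 over all genes. ASS1, argininosuccinate synthase, which makes the precursor of arginine, read 6.35, 6.53 and 6.37 in RH30-SR and 5.75, 5.79 and 5.77 in MyoDΔ cells. The control arrays were all higher, and ASS1 fell by 0.65 ± 0.06 (SE; limma adjusted p = 0.00168). SLC7A1, a cationic amino acid transporter that imports arginine, read 8.92, 9.06 and 9.04 in RH30-SR and 9.52, 9.50 and 9.50 in MyoDΔ cells. It rose by 0.50 ± 0.06 (SE; limma adjusted p = 0.00325), and the groups did not overlap.

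Both other called genes of that list belong to serine synthesis, which feeds glycine. PHGDH, the enzyme at its entry, read 7.34, 7.38 and 7.34 in RH30-SR and 7.06, 6.99 and 6.98 in MyoDΔ cells (-0.34 ± 0.05, SE; limma adjusted p = 0.00938). PSAT1, the aminotransferase that follows, read 8.66, 8.84 and 8.91 against 8.34, 8.42 and 8.42 (-0.41 ± 0.07, SE; limma adjusted p = 0.0228). Neither gene overlapped between groups, but both calls were fragile. PHGDH lost its call without RH30-SR MyoDΔ replicate 3, where its adjusted p came just above the threshold, and with the replicate number as a block (0.0529). PSAT1 kept its call without RH30-SR replicate 1, but not when any of the other 5 arrays was removed (0.0709 to 0.0856). Without RH30-SR MyoDΔ replicate 3 the list held 2 called genes in place of 4.

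The methyl donor list, which covers S-adenosylmethionine used by GAMT, held 2 called genes among 15 measured, against 7.01% of all genes. NNMT, nicotinamide N-methyltransferase, which spends the same donor, read 6.79, 6.87 and 6.86 in RH30-SR and 6.15, 6.13 and 6.04 in MyoDΔ cells. NNMT fell by 0.73 ± 0.06 (SE; limma adjusted p = 5.35e-04), with no overlap. MTRR, the reductase that keeps methionine synthase active, read 6.41, 6.35 and 6.42 against 6.75, 6.75 and 6.76. It rose by 0.36 ± 0.05 (SE; limma adjusted p = 0.00662). The remaining 13 genes were not called, and the median of the list was -0.02.

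In 3 small lists of other systems that buffer or sense ATP no gene was called, where 7.01% of all genes were, a share at which lists of this size would hold few or no calls. None of 7 measured adenylate kinases and AMP deaminases was called, and AMPD3, an AMP deaminase, came nearest (-0.18 ± 0.05, SE; limma adjusted p = 0.0899). None of 6 measured mitochondrial nucleotide carriers and outer membrane pores was called. VDAC3, a pore of the outer membrane, lay just below the fold threshold (-0.31 ± 0.06, SE; limma adjusted p = 0.0258). None of 13 measured energy sensors and regulators of oxidative genes was called. PRKAG2, a regulatory subunit of AMP-activated protein kinase, read 0.32 ± 0.05 (SE; limma adjusted p = 0.00998), which rounds to the fold threshold and lies under it. SLC25A5, a nucleotide carrier, and PRKAG1, a relative of PRKAG2, likewise missed the fold threshold only. With limma and no adjustment for the number of genes, p was under 0.05 for 2 of the 7, 2 of the 6 and 4 of the 13 genes, against 24.6% of all genes. For the last 2 lists the count of called genes was 1 in place of 0 in 5 of 13 alternatives.

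**Figure D3:**
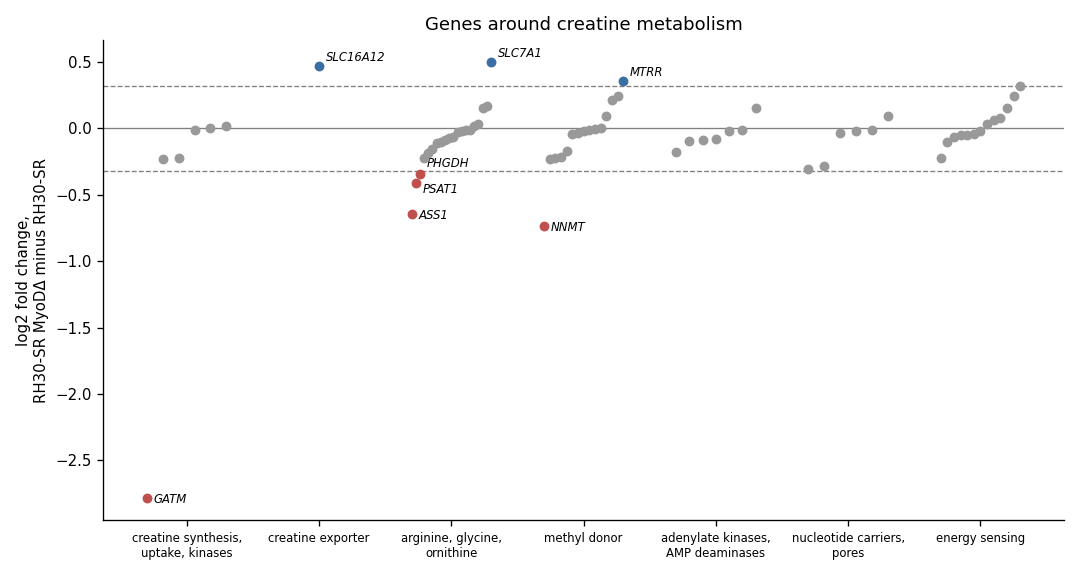
Log2 fold change (RH30-SR MyoDΔ minus RH30-SR) of each measured gene in 7 lists around creatine metabolism, 1 point per gene, ordered by change within a list. Genes called lower are red, genes called higher are blue and the others grey, and dashed lines mark a change of 25%. GATM (-2.79), which was chosen for its fall, lies far below all other genes shown, of which NNMT (-0.73) is the lowest.

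Of 16 measured transcription factors known to act on the CKM gene, 4 were called lower (4.2% of all genes were), 1 higher (2.81%) and 11 neither. MYOD1, the edited gene (-2.34 ± 0.12, SE), and MYOG, the gene for myogenin (-2.70 ± 0.14), were lower. So were MEF2C (-1.40 ± 0.06) and TCF4, an E protein (-0.40 ± 0.05). MYF5, a relative of MyoD that binds the same E-boxes, was higher (0.98 ± 0.08). The highest adjusted p among these 5 factors was 0.00465 (limma, TCF4). MYOD1, MYOG and MYF5 are also among the muscle lineage markers counted above, so that these counts share genes. The list was chosen with earlier results of these data known, and nothing is read from its shares.

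Since MyoDΔ cells were 1 clone, the genes next to each creatine gene were also read, as the 5 nearest measured genes on each side in RefSeq order. Around GATM on chromosome 15, 0 of 10 neighbours were called, against 7.01% of all genes, and their changes ran from -0.15 to 0.30 with a median of 0.02. At that share 10 genes would hold few or no calls, and GATM itself had been chosen for its fall. Whether a change particular to the clone reached this stretch was not tested. Around SLC6A8 the median was -0.03 and 1 of 10 was lower, SRPK3, which encodes a kinase of striated muscle (-0.54). Around GAMT 0 of 10 were called (median -0.07). Around CKM 1 was lower, the DNA repair gene ERCC1 (-0.43), and around CKMT2 1 was lower, SSBP2 (-0.90). CKB had 1 lower neighbour, TNFAIP2 (-0.34), and 1 higher, the kinase gene MARK3 (0.37). These neighbours were named after their values had been seen.

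**Figure D4:**
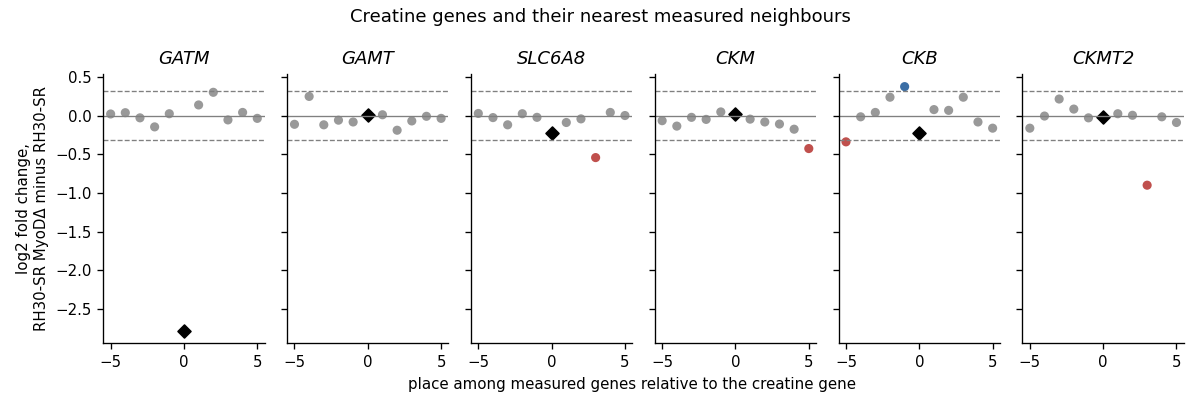
Log2 fold change (RH30-SR MyoDΔ minus RH30-SR) of each creatine gene (black diamond) and of the 5 nearest measured genes on each side, against their place in chromosome order. Red points were called lower, blue points higher and grey points not called, and dashed lines mark a change of 25%. No neighbour of GATM passed the thresholds.

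The profile of GATM over the 6 arrays was most like those of 3 other genes, by Euclidean distance between log2 profiles centered on their own means. The nearest was MSTN, which encodes the growth inhibitor myostatin (distance 0.357). Its values were 8.85, 8.71 and 8.89 in RH30-SR and 5.96, 6.05 and 5.74 in MyoDΔ cells. F13A1, the A subunit of coagulation factor XIII, followed at 0.472, with 7.24, 7.28 and 7.18 against 4.45, 4.28 and 4.34. MUSK, the muscle-specific receptor tyrosine kinase, lay at 0.491, with 6.67, 6.59 and 6.69 against 4.18, 4.21 and 4.09. In these genes, too, the groups lay far apart, with log2 fold changes of -2.90, -2.88 and -2.49. With 3 arrays a group this likeness mostly reflects a similar size of fall.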

How the data were processed

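Total RNA from 6 cultures was hybridized to Affymetrix Human Transcriptome Array 2.0 chips, which have 1 color. The authors deposited RMA values on the log2 scale, 1 per transcript cluster and array, after background correction, quantile normalization and median polish. Expression Console (Affymetrix) is the tool listed in the submitters' processing notes. Its version and the genome build are not given in the sources used here. Quantile normalization hides a change common to most transcripts. The table held 65535 clusters, of which 22758 carried 1 symbol from the platform annotation, giving 22448 genes by the cluster with the highest mean. The number of arrays, and not a read depth, limits precision.

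Limma 3.58.1 (R 4.3.3; lmFit and eBayes, group as the only term) was fitted to all clusters, with two-sided Benjamini-Hochberg adjustment over all of them. Adjusted p values are from this fit, except where the text names another setting or an array left out. Calls required an adjusted p under 0.05 together with a change of more than 25%. The script was tested on simulated data. The sources used here name no batch, and p values measure only the spread between these cultures.

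The creatine genes, 7 further gene lists and 7 marker lists were chosen with earlier results of these data known. Named genes were the 6 creatine genes, the called genes of each list or the gene with the smallest adjusted p, MYOD1, and the 3 genes nearest GATM in profile. SLC25A5, PRKAG1 and the called neighbours of the creatine genes were named outside this rule. Alternatives covered normalization, variance model, array weights, a filter on dim clusters, the replicate number as a block, other clusters and leaving out each array. A second deposited table was left out, because its column names did not match the sample titles.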

Additional observations from a re-analysis of the deposited data

How the results depend on the processing

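The values of the creatine genes, which were chosen by this comparison, are given here without support being drawn from them. On its other transcript cluster the change of GATM was -0.18 and not called. The lowest and highest values without 1 array were -2.92 and -2.72 for GATM, and the count of called arginine and glycine genes then ran from 2 to 4. The count of higher genes ran from 409 to 526 without 1 array (631 with all), and that of called transcript clusters from 2031 to 2716 (3094). For the nucleotide carriers and pores and for the energy regulators, the count was 1 in place of 0 after quantile normalization, after cyclic loess and with array weights, and it ran from 0 to 1 without 1 array. With the replicate number as a block GATM changed by -2.79, and among the called genes of the lists PHGDH (adjusted p = 0.0529) and PECAM1 (0.101) lost their calls. Same-numbered arrays did not deviate together across clusters (correlations -0.05, -0.04 and 0.03). With 3 arrays a group this cannot decide whether same-numbered cultures were handled together, and the labels do not say. The repeat on a further table of the same arrays was not run. Levels near or under the median of all clusters (4.295) limit what change could be seen. Among them are GATM in MyoDΔ cells, CKMT2 and PECAM1 in both groups, and perhaps also CKM and SLC16A12. Without a background measure no limit of detection was set.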
